A study of Mus musculus with 10 samples.

Results

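The claudins described here are a set of 9 tight junction genes, Cldn1, Cldn2, Cldn3, Cldn4, Cldn5, Cldn7, Cldn8, Cldn12 and Cldn15. Members were found as probe sets whose only gene symbol in the platform's probe-to-gene table was one of these names, and the brightest probe set by its mean signal on the 10 arrays stood for each gene. The rule found 8 of the 9 claudins, on 15 probe sets, among 12393 genes and 22690 probe sets in all. Cldn12 matched no probe set and was not analysed here.

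Claudins are membrane proteins that link neighbouring epithelial cells into the strands of the tight junction, and the mixture of claudins in a strand sets which ions and how much water pass between the cells. Some are known mainly as sealing claudins, among them Cldn1, Cldn3, Cldn4, Cldn5, Cldn7 and Cldn8, and others form selective pores, among them Cldn2 and Cldn15, which in the small intestine carry sodium and other small cations. Cldn2 is known as a crypt claudin of the intestine, Cldn5 as a claudin of blood vessel endothelium, and Cldn3 and Cldn4 as receptors of a clostridial enterotoxin.

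Intestinal epithelium of C57BL/6 mice was hybridised to Affymetrix mouse 430A 2.0 arrays, 2 arrays for each of 5 groups. ISC were Lgr5-positive stem cells sorted by their GFP from Lgr5-eGFP-Cre mice. Crypt secretory progenitors (Sec-Pro) came from mice with Rbpj deleted (Rbpj Sec-Pro) or from mice given dibenzazepine, an inhibitor of Notch signalling (DBZ Sec-Pro). The enterocyte progenitors (Ent-Pro) were crypts and the enterocytes (ENT) villi of Atoh1-/- mice, in which secretory cells are missing. These last 2 groups therefore share the Atoh1 deletion, which the other 3 do not carry. ISC were sorted, whereas the labels name no sorting for the other 4 groups. Crypts were incubated for 50 min and villi for 25 min in 5 mM EDTA. The Cre drivers behind both deletions, the ages of the mice, the dose of dibenzazepine and any pooling of animals were not given in the sources used here. Whether replicates were separate animals is not stated in the labels, and the p-values therefore reflect only differences between the samples, possibly technical ones.

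Across genes, r was 0.982 to 0.995 within groups and 0.886 to 0.980 between them. The labels were borne out by the genes that define the groups: Lgr5 was highest in ISC at 11.36 and 11.06 (log2), Rbpj was lowest in Rbpj Sec-Pro at 6.74 and 6.62, and Atoh1 was at most 5.78 in Ent-Pro and ENT against 7.68 or more elsewhere. Stem cell markers averaged 10.26 and 10.16 in Ent-Pro against 11.32 and 11.09 in ISC. Replicate 1 of Rbpj Sec-Pro stood apart from replicate 2, with Lgr5 at 6.31 against 8.61, a mean of the 5 tuft cell markers of 6.53 against 9.05 and a mean of the 8 leukocyte markers of 9.56 against 7.52. In ISC the 3′ probe sets of Gapdh exceeded the 5′ ones by 1.61 and 1.81 (log2), against -0.02 to 0.32 on the other 8 arrays, so RNA of the sorted cells was read with a stronger 3′ bias. Because these are bulk preparations, fewer cells of a type and less RNA per cell cannot be told apart in any result below.

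All levels are the deposited log2 signals of a probe set, and a difference of 1 is a 2-fold change. Signals of different probe sets have different brightness, so levels are compared only between groups for the same probe set. A gene was called changed where limma's adjusted p over all 12393 genes was under 0.05. Over the 5 groups together, 4 of the 8 measured claudins differed by limma's F test (Cldn4, Cldn3, Cldn15 and Cldn2), a share of 50% where 66.1% of all genes were called. The distance between the highest and lowest group mean was 3.05 for Cldn4, 2.01 for Cldn2, 0.88 for Cldn15, 0.73 for Cldn3 and 0.40 for Cldn7.

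**Figure D1:**
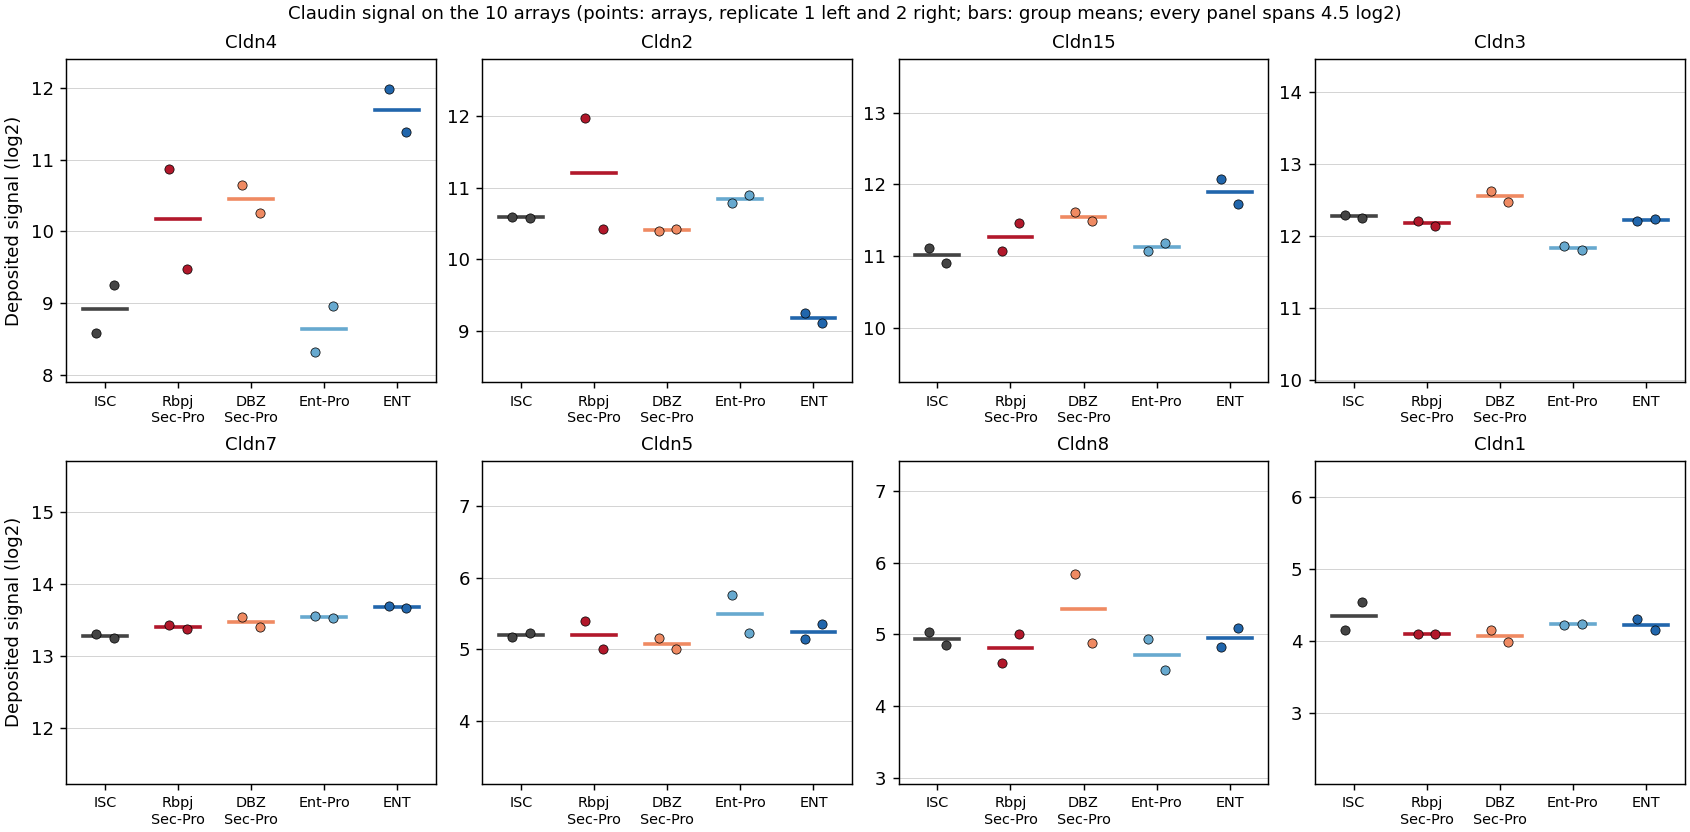
Deposited signal (log2) of the 8 measured claudins on the 10 arrays, by group, with points for arrays and bars for group means, and every panel spanning the same log2 distance. Cldn4 is highest in ENT and lowest in Ent-Pro, Cldn2 is lowest in ENT, and one of the Rbpj Sec-Pro arrays carries the highest Cldn2 signal, 11.97.

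The promoters of the 4 claudins that differed are shown. Cldn3, Cldn4 and Cldn15 lie on chromosome 5 and were all higher in ENT than in Ent-Pro, whereas Cldn2, on chromosome X, was lower. Each window runs from 250 bases before to 50 bases after the RefSeq start (GRCm38.p6), 5′ to 3′ on the gene's strand, and capitals mark matches to 4 short motifs chosen after the sequences had been seen. The motifs, searched on both strands, were TGANTCA, bound by AP-1, and TATAAA, the core promoter box. Added to these were TTTATG, bound by CDX factors, and TGGGAA, bound by RBPJ. Windows are chr5:134946885-134947184 (- strand) for Cldn4, chr5:134985964-134986263 (+) for Cldn3, chrX:139800558-139800857 (+) for Cldn2 and chr5:136967619-136967918 (+) for Cldn15.
Cldn4: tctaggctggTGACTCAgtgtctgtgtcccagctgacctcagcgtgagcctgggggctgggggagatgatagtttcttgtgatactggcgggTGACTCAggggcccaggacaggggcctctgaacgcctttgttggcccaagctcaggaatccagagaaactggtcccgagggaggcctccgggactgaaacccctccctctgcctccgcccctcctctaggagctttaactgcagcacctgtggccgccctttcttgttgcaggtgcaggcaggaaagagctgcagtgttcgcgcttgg
Cldn3: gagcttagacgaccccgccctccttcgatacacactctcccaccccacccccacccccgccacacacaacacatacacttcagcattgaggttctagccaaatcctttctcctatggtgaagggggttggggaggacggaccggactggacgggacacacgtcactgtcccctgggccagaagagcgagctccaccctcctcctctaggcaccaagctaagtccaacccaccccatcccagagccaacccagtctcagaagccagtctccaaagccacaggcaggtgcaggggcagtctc
Cldn2: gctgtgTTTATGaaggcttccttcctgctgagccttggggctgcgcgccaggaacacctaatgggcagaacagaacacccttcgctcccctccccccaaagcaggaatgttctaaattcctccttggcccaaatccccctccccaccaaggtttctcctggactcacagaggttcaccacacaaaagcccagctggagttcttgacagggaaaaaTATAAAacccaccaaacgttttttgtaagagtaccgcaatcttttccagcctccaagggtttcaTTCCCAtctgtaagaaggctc
Cldn15: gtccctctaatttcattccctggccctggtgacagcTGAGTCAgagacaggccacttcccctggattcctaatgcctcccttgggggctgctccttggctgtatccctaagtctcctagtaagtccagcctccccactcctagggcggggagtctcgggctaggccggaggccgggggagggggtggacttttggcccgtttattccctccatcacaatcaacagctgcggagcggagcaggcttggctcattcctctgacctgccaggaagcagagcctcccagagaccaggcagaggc

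RefSeq promoter windows were found for 8 of the 9 claudins. The Cldn4 window holds 2 AP-1 matches, beginning 240 and 158 bases before the start, and the Cldn15 window holds 1, beginning 214 bases before it. AP-1 matches occur in 7.8% of all 32851 windows. Cldn2 has the TATAAA box 35 bases before its start, which 13.6% of windows contain, a CDX match 244 bases before it, which 11.9% contain, and an RBPJ match within the 50 transcribed bases on the opposite strand, which 25.6% contain. The Cldn3 window holds none of the 4 motifs, and no 2 matches overlap in any of these windows. Cldn3 and Cldn4 are direct neighbours, with 0 genes listed between them in RefSeq. A match says only that these letters are present, and binding was not measured.

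Of the sealing claudins, Cldn4 varied most. Its signal was 8.58 and 9.26 (ISC), 10.87 and 9.48 (Rbpj Sec-Pro), 10.64 and 10.26 (DBZ Sec-Pro), 8.32 and 8.96 (Ent-Pro), and 11.98 and 11.39 (ENT). Both ENT arrays lay above every other array, and all 4 Sec-Pro arrays lay above all 4 arrays of ISC and Ent-Pro. From lowest to highest mean the order was Ent-Pro, ISC, Rbpj Sec-Pro, DBZ Sec-Pro and ENT. ISC and Ent-Pro overlapped, as did both Sec-Pro groups, so each of these neighbours is unordered. The steps from ISC to Rbpj Sec-Pro (1.26, SE 0.45, adjusted p = 0.0445) and from DBZ Sec-Pro to ENT (1.24, SE 0.45, adjusted p = 0.0493) were called. Over the 10 possible pairs of groups Cldn4 was called in 8, the exceptions being Ent-Pro against ISC and DBZ against Rbpj Sec-Pro. For scale, the share of all genes called was 47.1% for Rbpj Sec-Pro against ISC, 36.2% for DBZ Sec-Pro against ISC, 26.3% for Ent-Pro against Rbpj Sec-Pro and 18.6% for Ent-Pro against DBZ Sec-Pro. With ENT in the pair it was 49.2% against ISC, 35.8% against Rbpj Sec-Pro and 45.1% against DBZ Sec-Pro.

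The comparison of ENT with Ent-Pro asks how villus enterocytes differ from crypt enterocyte progenitors when both come from Atoh1-/- mice. Here 3 claudins rose and 1 fell, that is 4 of 8 or 50%, where 38.7% of all genes were called (18.5% higher and 20.2% lower). Arrays of both groups were apart for 5 of the 8 claudins and for 71.2% of all genes. Cldn4 was 8.28-fold higher in ENT (log2 difference 3.05, SE 0.45, adjusted p = 0.000744). It stayed called without any 1 of the 10 arrays, with differences of 2.73 to 3.37. Cldn15 was 1.70-fold higher (0.77, SE 0.18, adjusted p = 0.00782), and Cldn3 was 1.32-fold higher (0.40, SE 0.11, adjusted p = 0.0203). Cldn2 was 3.15-fold lower in ENT (-1.65, SE 0.38, adjusted p = 0.00824), so the pore-forming pair Cldn2 and Cldn15 went in opposite directions along the crypt to villus axis. Cldn7 differed by 0.14 (95% interval -0.11 to 0.39, adjusted p = 0.373), Cldn8 by 0.23 and Cldn5 by -0.25, and none of these 3 passed the test. With cyclic loess between arrays Cldn7 was at 0.34 and was called (adjusted p = 0.0313, in a range of 0.0313 to 0.622 over the alternatives). The median difference was 0.19 over the claudins and 0.020 over all genes.

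In ENT the leukocyte marker list (8 of 8 measured) averaged 8.44 and 8.77, against 6.72 and 6.66 in Ent-Pro, and the tuft cell list (5 of 5 measured) averaged 9.40 and 8.95 against 6.09 and 5.54. The Paneth cell list (4 of 5 measured) averaged 7.169 and 9.385 in ENT against 8.809 and 8.995 in Ent-Pro. The part of these lists in the claudin differences between villus and crypt was not tested. The Cldn15 call was lost without Ent-Pro replicate 1 (difference 0.71) or without ENT replicate 1 (difference 0.59). That of Cldn3 was lost without any 1 of the 4 arrays compared, with differences from 0.37 to 0.42. In each of these fits fewer of all genes were called as well.

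**Figure D2:**
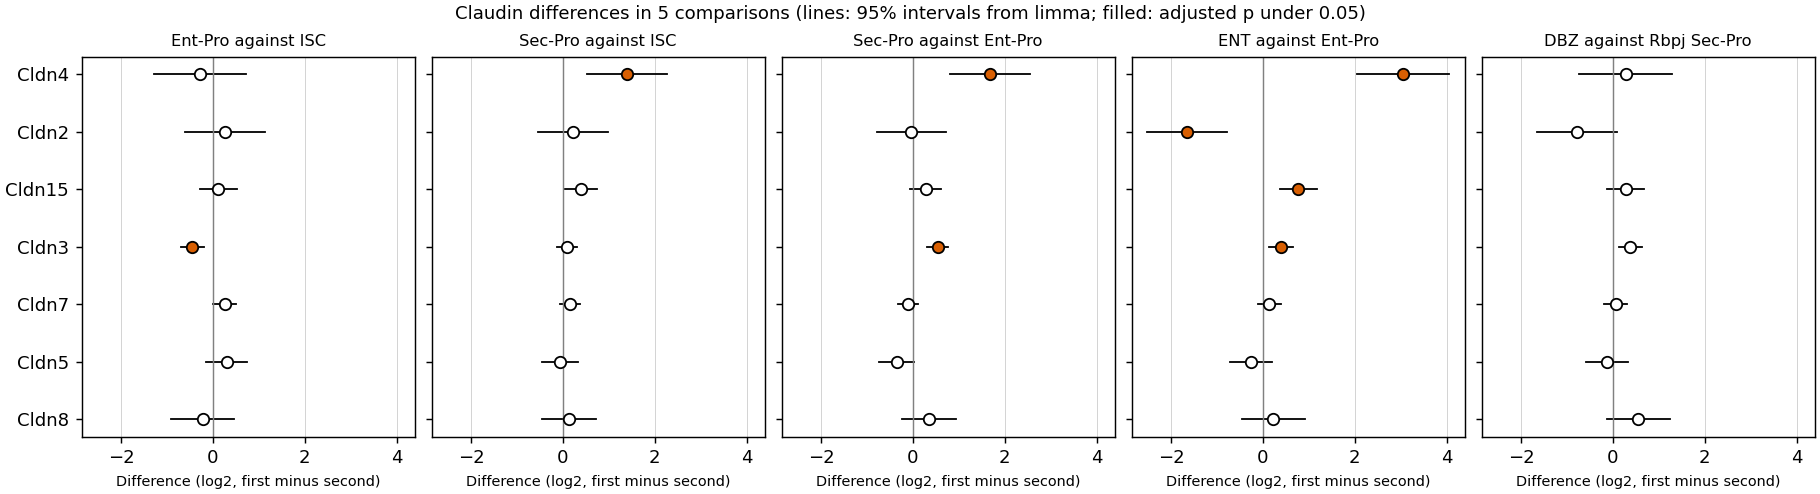
Differences (log2, first group minus second) of 7 claudins in 5 comparisons, with 95% intervals from limma and filled points for adjusted p under 0.05. ENT against Ent-Pro holds the largest values, 3.05 for Cldn4 and -1.65 for Cldn2, and DBZ against Rbpj Sec-Pro has no filled point.

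The comparison of Sec-Pro with Ent-Pro sets the secretory branch against the absorptive branch of the crypt, Sec-Pro being the mean of both Sec-Pro groups. Cldn4 and Cldn3 were higher in Sec-Pro and no claudin was lower, so 2 of 8 (25%) were called where 24% of all genes were (9.27% higher and 14.7% lower). Arrays of the groups were apart for 3 of 8 claudins and 40.2% of all genes. The claudins were thus called at about the rate of all genes. Cldn4 was 3.20-fold higher (1.68, SE 0.39, adjusted p = 0.0159), and against Ent-Pro each Sec-Pro group was called on its own, Rbpj at 2.90-fold and DBZ at 3.52-fold higher. The Rbpj value averages 2 unlike arrays, 10.87 on replicate 1 and 9.48 on replicate 2. Cldn3 was 1.45-fold higher (0.54, SE 0.10, adjusted p = 0.00611). For Cldn15 the difference was 0.27 (adjusted p = 0.224), for Cldn7 -0.10 (adjusted p = 0.479), and for Cldn2 -0.036 with a 95% interval from -0.79 to 0.72 (adjusted p = 0.947). Neither call was made with 1 Ent-Pro array left, a setting in which far fewer of all genes were called too. Without replicate 1 or 2 of Ent-Pro, the difference was 1.36 and 2.00 for Cldn4, and 0.56 and 0.51 for Cldn3. Without Rbpj Sec-Pro replicate 1, the array that stands apart, Cldn4 remained called at 1.33 (adjusted p = 0.014) and Cldn3 at 0.52 (adjusted p = 0.0108). The leukocyte list averaged 7.52 to 9.56 in Sec-Pro against 6.72 and 6.66 in Ent-Pro, and the tuft cell list 6.53 to 9.05 against 6.09 and 5.54. The goblet cell list (6 of 7 measured) averaged 13.11 to 13.56 against 6.19 and 6.13. On the enterocyte list (7 of 9 measured) DBZ Sec-Pro overlapped Ent-Pro, while both Rbpj Sec-Pro arrays lay above both Ent-Pro arrays. Its averages were 14.03 and 13.76 in Rbpj Sec-Pro, 13.37 and 12.91 in DBZ Sec-Pro, and 13.36 and 13.17 in Ent-Pro. In ENT they were 14.08 and 14.09, close to Rbpj Sec-Pro. The part of these lists in the claudin differences was not tested.

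Sec-Pro against ISC compares secretory progenitors with the stem cells of the crypt base. Cldn4 alone was called, 2.63-fold higher in Sec-Pro (1.40, SE 0.39, adjusted p = 0.0166). That is 1 of 8 claudins (12.5%), where 45.2% of all genes were called, and arrays were apart for 3 of 8 claudins and 50.8% of all genes. Cldn15 differed by 0.39 (95% interval 0.042 to 0.74, adjusted p = 0.0667). In DBZ Sec-Pro alone Cldn15 was 1.44-fold higher than in ISC (0.53, SE 0.18, adjusted p = 0.0441), and in Rbpj Sec-Pro alone the difference was 0.25 (adjusted p = 0.277). Without Rbpj Sec-Pro replicate 1 Cldn15 was called at 0.49 (adjusted p = 0.0229, in a range of 0.0229 to 0.332 over the 10 omissions), and Cldn4 stayed called at 1.05 (adjusted p = 0.0172). The Cldn4 call was lost without ISC replicate 1 (difference 1.06), where fewer of all genes were called as well. The enterocyte marker list (7 of 9 measured) averaged 11.16 and 11.12 in ISC, 12.91 to 14.03 in Sec-Pro and 13.36 and 13.17 in Ent-Pro. The leukocyte list averaged 5.60 and 5.90 in ISC and 7.52 to 9.56 in Sec-Pro. The part of these lists and of the 3′ bias in the ISC comparisons was not tested.

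Ent-Pro against ISC, the absorptive branch against the stem cells, again gave 1 call among the 8 claudins (12.5%), where 25.5% of all genes were called (13.5% lower), and arrays were apart for 3 of 8 claudins and 63.7% of all genes. Cldn3 was 1.36-fold lower in Ent-Pro (-0.45, SE 0.11, adjusted p = 0.0179). This call was lost without any 1 of the 4 arrays compared, with differences from -0.48 to -0.42 over the 10 omissions. In those 4 fits fewer of all genes were called as well. The probe sets of Cldn3 also disagreed on this call, as described below. Cldn4 differed by -0.28, with an interval from -1.29 to 0.73, which leaves room for changes of either sign. Cldn2 differed by 0.26 (interval -0.62 to 1.13), Cldn15 by 0.11 (interval -0.29 to 0.52) and Cldn7 by 0.26 (interval 0.0065 to 0.51, adjusted p = 0.131). These comparisons share arrays: ISC and Ent-Pro each enter several of them, so their results are not independent of each other.

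DBZ against Rbpj Sec-Pro compares both ways of blocking Notch signalling. In limma 0 of 8 claudins were called, where 16.4% of all genes were (9.34% higher). Arrays were apart for 3 of 8 claudins and 59.8% of all genes. Nearest to the threshold was Cldn3, higher by 0.38 in DBZ Sec-Pro (SE 0.11, 95% interval 0.13 to 0.63), with an adjusted p of 0.0502. It passed in 4 alternatives of the processing (adjusted p 0.0221 to 0.0486) and in none of the 10 omissions of an array (0.0668 to 0.185). Cldn2 was at -0.79 with a wide interval, -1.66 to 0.085 (adjusted p = 0.188), and its Rbpj arrays lay far apart.

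Cldn2, the cation pore of the crypt, read 10.59 and 10.58 (ISC), 11.97 and 10.43 (Rbpj Sec-Pro), 10.40 and 10.43 (DBZ Sec-Pro), 10.79 and 10.89 (Ent-Pro), and 9.26 and 9.11 (ENT). Both ENT arrays lay below all 8 arrays from crypts or stem cells. The means rose in the order ENT, DBZ Sec-Pro, ISC, Ent-Pro and Rbpj Sec-Pro, with a called step only between ENT and DBZ Sec-Pro (1.22, SE 0.38, adjusted p = 0.0291). Cldn2 was called in 4 of the 10 pairs, which are the pairs of ENT with each other group: ENT was 2.63-fold below ISC, 4.03-fold below Rbpj Sec-Pro, 2.34-fold below DBZ Sec-Pro and 3.15-fold below Ent-Pro. ENT against Ent-Pro stayed called without any 1 of the 10 arrays, at -1.73 to -1.58 (adjusted p at most 0.0487).

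Rbpj Sec-Pro replicate 1 held the highest Cldn2 signal, and the comparisons of Sec-Pro, and of DBZ with Rbpj Sec-Pro, turned on it. Without it Sec-Pro was at -0.42 against Ent-Pro (adjusted p = 0.0258) and at -0.16 against ISC (adjusted p = 0.243). Without replicate 2 in its place the differences were 0.35 (adjusted p = 0.0388) and 0.61 (adjusted p = 0.00176). DBZ against Rbpj Sec-Pro went from -0.019 without replicate 1 (adjusted p = 0.948) to -1.56 without replicate 2 (adjusted p = 0.000748). These are the extremes of adjusted p in the omissions for the last comparison, and for the first it ranged from 0.0258 to 0.989. A direction of Cldn2 in secretory progenitors therefore rests on the choice of 1 array. The same array held the highest leukocyte marker mean, 9.56, and the lowest Lgr5 signal, 6.31, and their part in its Cldn2 signal was not tested.

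The second probe set of Cldn2, 1417232_at, was dimmer: 6.73 and 7.10 (ISC), 8.48 and 7.00 (Rbpj Sec-Pro), 7.08 and 6.69 (DBZ Sec-Pro), 7.08 and 7.35 (Ent-Pro), and 6.62 and 6.60 (ENT). It also read lowest in ENT and highest on Rbpj Sec-Pro replicate 1. Its difference between ENT and Ent-Pro was -0.61 (SE 0.39, adjusted p = 0.278), which did not pass the test in a fit of all probe sets, where 36.9% were called. The fall of Cldn2 thus rests on the brighter probe set, 1417231_at, while both read lower in ENT.

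Cldn15, a sodium pore of the small intestine, read 11.12 and 10.91 (ISC), 11.07 and 11.46 (Rbpj Sec-Pro), 11.61 and 11.49 (DBZ Sec-Pro), 11.07 and 11.19 (Ent-Pro), and 12.08 and 11.72 (ENT). The ENT arrays were highest, above the DBZ Sec-Pro arrays, and ISC overlapped Ent-Pro. The order of means was ISC, Ent-Pro, Rbpj Sec-Pro, DBZ Sec-Pro and ENT, in which no step between neighbours was called. Across the order ENT was 1.84-fold above ISC (0.88, SE 0.18, adjusted p = 0.00262) and 1.55-fold above Rbpj Sec-Pro (adjusted p = 0.0227). Over the 10 arrays Cldn15 correlated with Cldn4 at r = 0.774 and with Cldn2 at r = -0.782. Both values describe arrays that share groups and are given with no test.

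Cldn3, a sealing claudin, varied little on its brightest probe set, 1434651_a_at. It read 12.30 and 12.25 (ISC), 12.21 and 12.14 (Rbpj Sec-Pro), 12.63 and 12.48 (DBZ Sec-Pro), 11.86 and 11.80 (Ent-Pro), and 12.21 and 12.24 (ENT). The Ent-Pro arrays were lowest and the DBZ Sec-Pro arrays highest. Cldn3 was called in 5 of the 10 pairs, 4 of them with Ent-Pro as the lower group. Ent-Pro was 1.65-fold below DBZ Sec-Pro (-0.73, SE 0.11, adjusted p = 0.00285) and 1.27-fold below Rbpj Sec-Pro, where the adjusted p rounded to 0.05. ENT was 1.26-fold below DBZ Sec-Pro (adjusted p = 0.0397).

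Because Cldn3 has 4 probe sets, each was also tested on its own in the fit of all probe sets, a choice made after they had been seen to differ. Against Ent-Pro they gave like values: ENT was higher by 0.39 to 0.43 on all 4, and Sec-Pro by 0.38 to 0.54. In the fit of all probe sets 3 of the 4 were called in each of these comparisons, the exception being 1426332_a_at, where 36.9% and 20.9% of all probe sets were called. The Sec-Pro value pools both Sec-Pro groups. Rbpj Sec-Pro averaged 12.18 against 11.83 in Ent-Pro on 1434651_a_at and lay closer to Ent-Pro on the others. These means were 12.04 against 11.85 (1451701_x_at), 11.95 against 11.79 (1460569_x_at) and 10.86 against 10.79 (1426332_a_at). Against ISC the 4 probe sets disagreed in sign. Ent-Pro against ISC was -0.45 (adjusted p = 0.0193), -0.32 (0.0694) and -0.74 (0.00205) on 1434651_a_at, 1451701_x_at and 1460569_x_at, and 0.55 (0.0695) on 1426332_a_at (background 25.2%). Sec-Pro against ISC was 0.93 on 1426332_a_at (adjusted p = 0.0019) and -0.30 on 1460569_x_at (adjusted p = 0.0333), both called in opposite directions, where 44.6% of probe sets were called.

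On 1426332_a_at the ISC arrays were the lowest of all, at 10.47 and 10.01 against 10.76 to 11.70 elsewhere, and on 1460569_x_at they were among the highest, at 12.54 and 12.51 against 11.75 to 12.51. The direction of Cldn3 relative to stem cells is thus unsettled in these data, whereas Ent-Pro lay below ENT on each probe set. ISC is also the group with the stronger 3′ bias, and the part of that bias in the disagreement was not tested. For DBZ against Rbpj Sec-Pro all 4 probe sets read higher in DBZ, by 0.38 to 0.61, and 2 of the 4 were called, 1451701_x_at (adjusted p = 0.0328) and 1460569_x_at (adjusted p = 0.0187), where 14.8% of probe sets were.

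**Figure D3:**
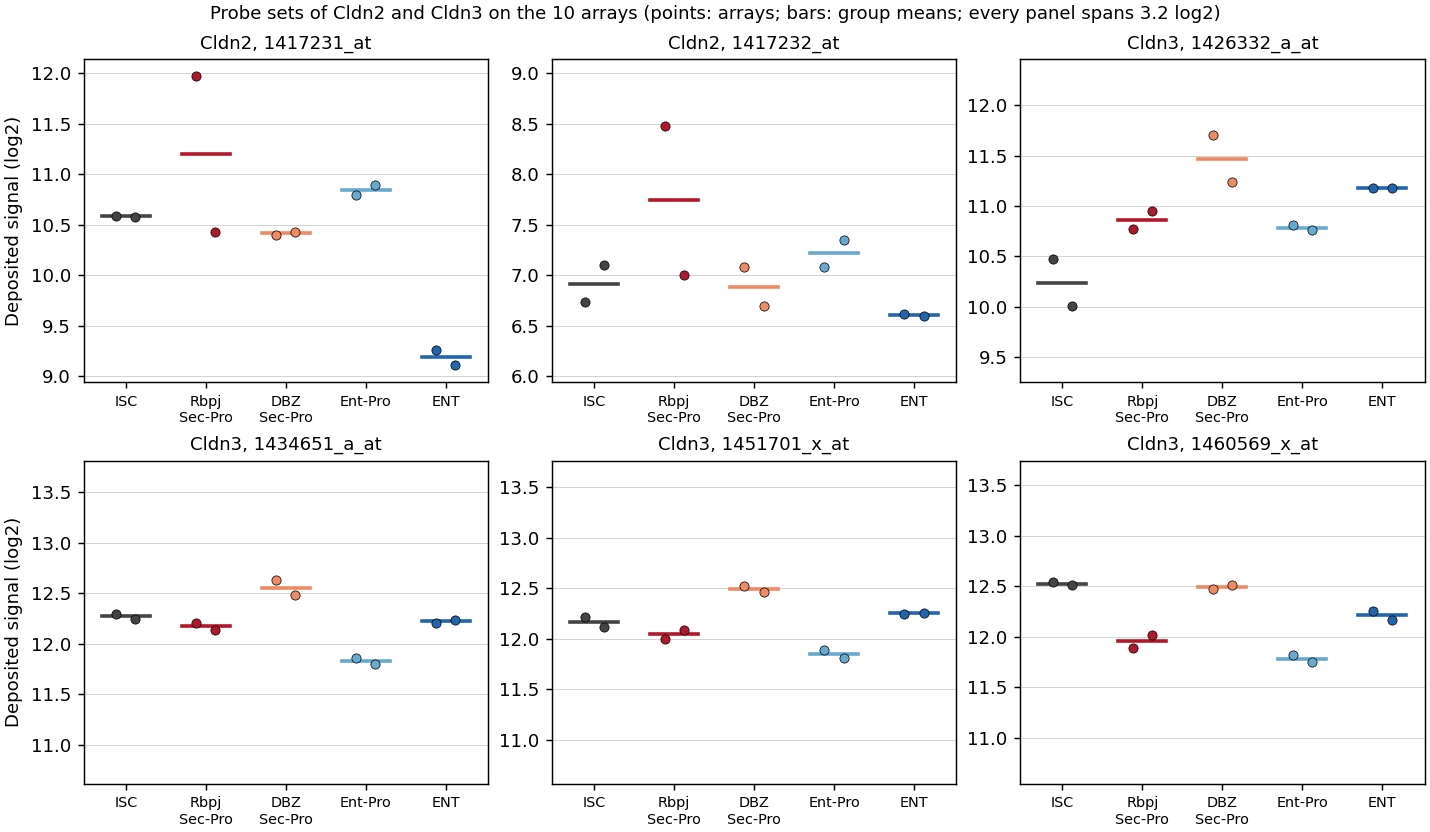
Deposited signal (log2) of the 2 probe sets of Cldn2 and the 4 of Cldn3 on the 10 arrays, with points for arrays and bars for group means, every panel spanning the same log2 distance. ISC is the lowest group on 1426332_a_at and the highest on 1460569_x_at, while ENT lies above Ent-Pro on each Cldn3 probe set.

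Cldn7, which is known from the basolateral membrane as well as the junction, was the most even of the bright claudins. Its signal was 13.31 and 13.25 (ISC), 13.43 and 13.38 (Rbpj Sec-Pro), 13.54 and 13.40 (DBZ Sec-Pro), 13.55 and 13.53 (Ent-Pro), and 13.69 and 13.67 (ENT). The ISC arrays were lowest and the ENT arrays highest, and the groups between them ran into each other. ENT was 1.32-fold above ISC (0.40, SE 0.11, adjusted p = 0.0149), the 1 pair of 10 that was called, and no step between neighbours was. Its F test over the 5 groups gave an adjusted p of 0.0745.

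Cldn5, Cldn8 and Cldn1 were dim. Cldn5, the endothelial claudin, ranged from 5.00 to 5.76 over the 10 arrays, 1.28 to 2.06 above the mean of the absent-control probe sets on the same array. No Cldn5 comparison was called. The largest difference over the 10 pairs was 0.42, Ent-Pro against DBZ Sec-Pro (adjusted p = 0.183), and the smallest adjusted p was 0.165, for Sec-Pro against Ent-Pro (-0.36). The mean of the endothelial marker list (10 of 10 measured) ranged more narrowly than Cldn5, from 5.22 to 5.47 on all arrays. A mean of 10 genes and a single gene are not alike in spread. Single markers ranged from narrower than Cldn5, such as Cdh5 (4.82 to 5.20), to wider, such as Esam (6.31 to 8.43). Its members Pecam1 and Tie1 were within 1 (log2) of the absent control on every array. The other 8 of the list reached higher, with highest values from 1.03 (Emcn) to 4.72 (Esam) above that control, among them Cdh5 at 1.46, Kdr at 1.53, Egfl7 at 3.24 and Eng at 3.47.

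Cldn8, a sealing claudin known from the colon and the distal kidney tubule, ranged from 4.50 to 5.84. The highest value was on DBZ Sec-Pro replicate 1, and replicate 2 of that group read 4.88, like the other groups. No comparison of Cldn8 was called, and the smallest adjusted p was 0.186, for Ent-Pro against DBZ Sec-Pro (-0.63). Cldn1, the sealing claudin of the epidermis, ranged from 3.98 to 4.54 and was near background in all 5 groups, within 1 (log2) of the absent control. This held for all 4 of its probe sets, at most 0.73 above that control, so no fold is given for Cldn1.

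Genes whose pattern over the 10 arrays was most like that of a claudin were sought by Pearson correlation among 5038 genes whose group means span at least 1 (log2). Values are descriptions over arrays that share groups. For Cldn4 they were Glmp, a lysosomal membrane protein (r = 0.972), Arhgef2, a guanine nucleotide exchange factor found at tight junctions (0.964), Gnai1, a G protein subunit (0.954), and Stat3, a transcription factor of cytokine signalling (0.953). Arhgef2 read 6.97 and 7.10 (ISC), 8.63 and 8.02 (Rbpj Sec-Pro), 8.33 and 8.27 (DBZ Sec-Pro), 7.13 and 7.26 (Ent-Pro), and 9.46 and 9.46 (ENT), the same ranking of low, middle and high groups as Cldn4. For Cldn2 they were the phosphatase gene Ptp4a3 (0.930), the co-chaperone Bag2 (0.889), Mak16 of ribosome assembly (0.876) and the cyclin Ccnd2 (0.874). For Cldn15 they were Ccnj, Pip5k1b, Tmem176a and Tiam2 (0.966 to 0.954).

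The other parts of the tight junction were followed through a list of 33 partners, of which 27 were measured: membrane partners such as occludin (Ocln) and JAM proteins, scaffolds such as Tjp1, and polarity proteins. In ENT against Ent-Pro 12 of these rose and 2 fell, where 18.5% of all genes were higher and 20.2% lower, with a median of 0.27 against 0.020 over all genes. By the smallest p these were Arhgef2 (4.80-fold higher), the polarity kinase Prkcz (2.41-fold higher), the polarity protein Crb3 (2.42-fold higher) and Ybx3, a DNA-binding protein that docks at tight junctions (2.57-fold lower). Ocln, the membrane partner most closely associated with claudin strands, differed by 0.070 (adjusted p = 0.733), and Tjp1 by -0.16 (adjusted p = 0.542). So in the comparison of villus with crypt, where 4 claudins were called, Ocln and Tjp1, both named for contrast after their values were seen, did not pass the test.

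In Sec-Pro against Ent-Pro 8 partners rose and 3 fell (median 0.031 against -0.093), where 9.27% of all genes were higher and 14.7% lower, with Amotl2 (1.45) and Arhgef2 (1.12) higher, Prkcz higher by 0.81, and the scaffold Tjp3 lower (-0.79). Sec-Pro against ISC gave 7 rises and 8 falls, where 18% of all genes were higher and 27.2% lower, among them Ocln (0.79) and Arhgef2 (1.28) higher, and Tjp3 (-1.41) and the scaffold Magi1 (-0.93) lower. Tjp3 and Magi1 are both scaffolds beneath the junctional membrane. Ent-Pro against ISC gave 2 rises and 8 falls, where 12.1% of all genes were higher and 13.5% lower, with Ocln (0.98) higher and Magi1 (-0.76), Prkcz (-0.71) and Crb3 (-0.70) lower. DBZ against Rbpj Sec-Pro gave 3 rises, Ocln (0.56), Ybx3 (0.65) and Pard6a (0.51), and 1 fall, Igsf5 (-0.91), where 9.34% of all genes were higher and 7.08% lower. Ocln thus rose from ISC to both progenitor types, in comparisons that share the ISC arrays.

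A list of 19 adherens junction and desmosome genes, 18 of them measured, served as the neighbouring junctions. In ENT against Ent-Pro 4 rose and 1 fell (median 0.098 against 0.020), where 38.7% of all genes were called (18.5% higher and 20.2% lower). The catenin genes Jup (0.63) and Ctnnd1 (0.59) and the cadherin Cdh17 (0.75) were among those higher, and the desmosomal plakophilin Pkp2 (-0.50) was lower. That count depends on the probe set. On the mean of a gene's probe sets it was 8 rises and 0 falls, where 2354 of all 12393 genes were higher and 2349 lower. On the dimmest probe set it was 11 and 0, where 2075 were higher and 1834 lower. Against Ent-Pro, Sec-Pro had 0 rises and 2 falls, Nectin3 (-1.20) and Pkp2 (-0.39). Of all genes 24% were called there, 9.27% higher and 14.7% lower. Nectins are adhesion molecules of adherens junctions, Ctnnd1 and Jup bind cadherin tails, and Perp and Dsc2 belong to desmosomes. Against ISC, 8 rose and 2 fell in Sec-Pro, where 45.2% of all genes were called (18% higher and 27.2% lower). Among them Ctnnd1 (1.14), Perp (1.29) and Vcl (0.90) were higher and Jup (-0.80) lower in Sec-Pro. Against ISC, 6 rose and 1 fell in Ent-Pro, where 25.5% of all genes were called (12.1% higher and 13.5% lower). Higher in Ent-Pro were Ctnnd1 (1.12), Perp (1.33), Dsc2 (0.88) and Cdh17 (0.98), among others. DBZ against Rbpj Sec-Pro gave 1 rise, Nectin2 (0.75), where 16.4% of all genes were called (9.34% higher and 7.08% lower).

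**Figure D4:**
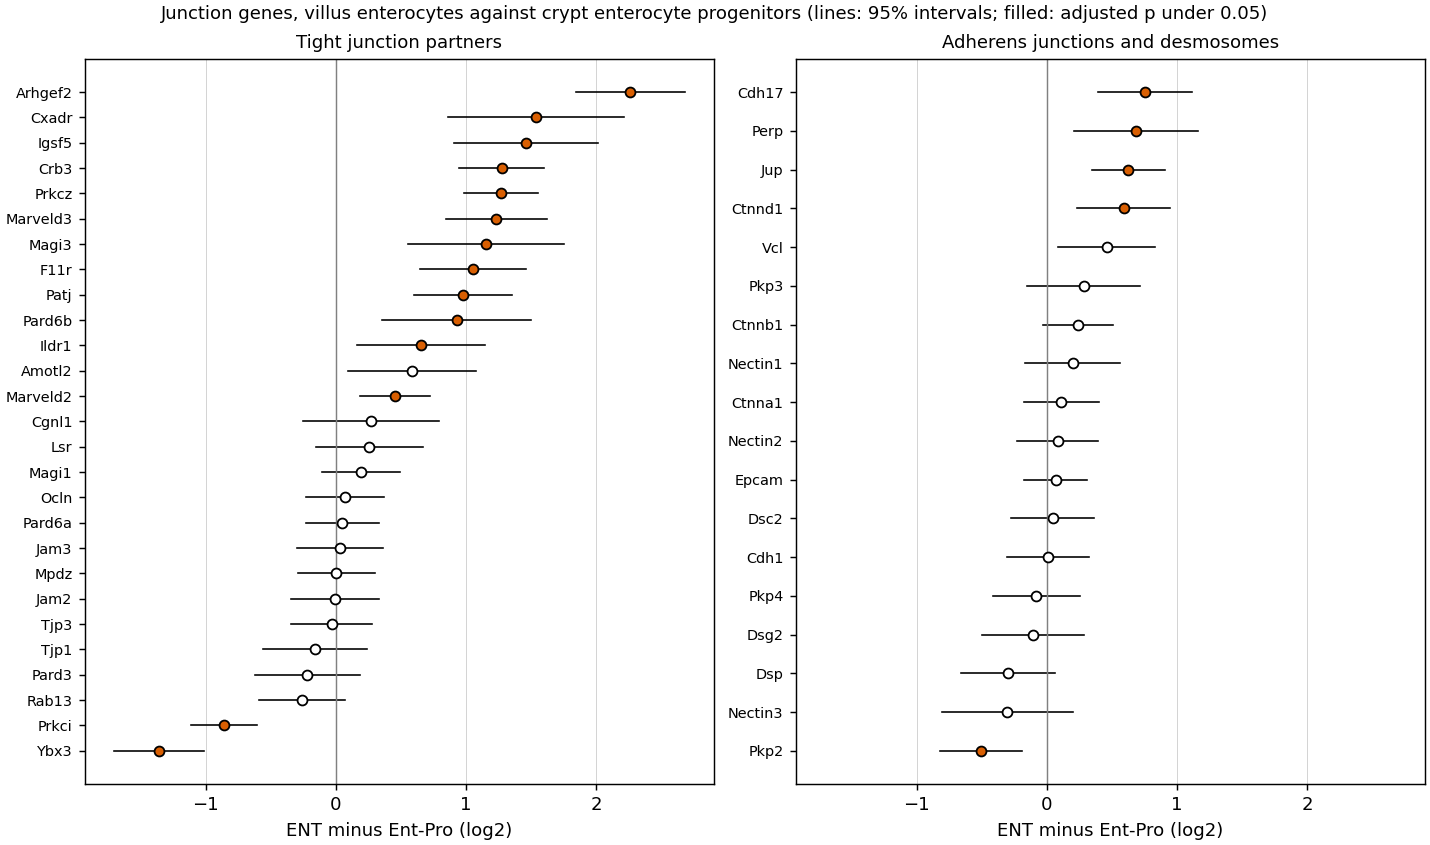
Differences (log2, ENT minus Ent-Pro) of the 27 measured tight junction partners and the 18 measured adherens junction and desmosome genes, with 95% intervals and filled points for adjusted p under 0.05. Among the partners 12 rose and 2 fell, with Arhgef2 at 2.26 and Ybx3 at -1.36, while the intervals of Ocln and Tjp1 include 0.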

How the data were processed

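The authors deposited log2 signals of 22690 probe sets for 10 arrays, and RMA and MAS5 are named in the submitters' processing notes without a role or version. Array medians were 6.83 to 6.98, and no further scaling was applied. Names came from the platform annotation, which gives 1 gene symbol to 20393 of them, several to 691 and none to 1606. Control probe sets (64) were left out, and the brightest probe set stood for each of 12393 genes.

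All arrays entered 1 linear model of 5 group means in limma 3.58.1 (R 4.3.3; lmFit and eBayes), with Benjamini-Hochberg adjustment over all genes and a threshold of 0.05. With 2 arrays a group, an exact permutation test cannot go below p = 0.333, so the spread was shared over groups and genes. Sec-Pro is the mean of both Sec-Pro groups. On simulated data the model called 70% to 82% of genes changed by 1 (log2) and 92% to 95% of those changed by 2. Between 7 and 11 unchanged genes were called. Each simulation changed 200 of 12393 genes, a smaller share than was called in the real comparisons, so these rates need not hold there. Changes under 1, such as those of Cldn3 and Cldn15, were not simulated.

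Near background means within 1 (log2) of the absent-control TrpnX probe sets on every array of a group. Named genes are all measured claudins, up to 4 called members of each junction list per comparison by smallest p, and the 4 genes most correlated with each of the 3 claudins of widest span. Members and lists were chosen with earlier results of these data known. Alternatives changed the scaling, the probe set, the filter, the variance prior, the arrays in the model and the replicate block. Promoter windows came from RefSeq (GRCm38.p6). The number of arrays limits the precision.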

Additional observations from a re-analysis of the deposited data

How the results depend on the processing

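Recomputed under the alternatives, the claudin differences kept direction and side of the threshold in 705 cases, lost a call in 19, gained one in 11 and changed sign in 26, and the cause was not tested. Sign changes in uncalled differences under another scaling were 0.016 for Cldn1 in ENT against Ent-Pro (arrays centred), and, with cyclic loess, 0.070 for Cldn2 and 0.037 for Cldn7 in Sec-Pro against Ent-Pro, 0.075 for Cldn5 in Sec-Pro against ISC (0.024 with quantile normalization) and -0.0053 for Cldn15 in Ent-Pro against ISC. With the mean of a gene's probe sets Cldn2 in Sec-Pro against Ent-Pro was at 0.032 and Cldn1 in DBZ against Rbpj Sec-Pro at 0.24. On the dimmest probe set these were 0.10 and 0.34, and Cldn3 in Ent-Pro against ISC turned from -0.45 to 0.55.

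Among counts of called claudins, DBZ against Rbpj Sec-Pro went from 0 to 1 in 4 settings, given here with the share of all genes called. These were quantile normalization (16.1%), the mean of probe sets (15.9%), genes above the median level (18.8% of those) and a variance trend (17.3%). Ent-Pro against ISC went from 1 to 0 with the mean of probe sets (24.2%) and on the dimmest probe set (21.3%). That probe set also gave 1 in place of 2 for Sec-Pro against Ent-Pro (18.6%) and 2 in place of 1 for Sec-Pro against ISC (40.4%). For ENT against Ent-Pro it gave 2 in place of 4 (31.5%). Cyclic loess gave 5 there (39.2%), adding Cldn7. Leaving out each array in turn gave 2 to 5 called claudins over the 5 groups, 0 to 3 in Sec-Pro against Ent-Pro, 1 to 2 in Sec-Pro against ISC, 0 to 1 in Ent-Pro against ISC, 2 to 4 in ENT against Ent-Pro and 0 to 1 in DBZ against Rbpj Sec-Pro.

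Differences that changed sign when 1 array was left out ran, in Sec-Pro against Ent-Pro, from -0.42 to 0.35 for Cldn2. In Sec-Pro against ISC they ran from -0.16 to 0.61 for Cldn2, from -0.15 to 0.040 for Cldn5 and from -0.10 to 0.38 for Cldn8. In Ent-Pro against ISC they ran from -0.30 to 0.078 for Cldn1 and from -0.62 to 0.060 for Cldn4. In ENT against Ent-Pro they ran from -0.086 to 0.070 for Cldn1 and from -0.52 to 0.012 for Cldn5. In DBZ against Rbpj Sec-Pro they ran from -0.12 to 0.050 for Cldn1, from -0.42 to 0.97 for Cldn4, from -0.32 to 0.062 for Cldn5 and from -0.0071 to 0.14 for Cldn7.

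Same-numbered arrays deviated together with r from -0.192 to 0.174. With 2 arrays a group these values cannot settle whether such arrays share an animal or a preparation, which the labels do not state. With the replicate number as a block 4 claudins were called over the 5 groups, 4 in ENT against Ent-Pro, 2 in Sec-Pro against Ent-Pro, 1 each for Sec-Pro and Ent-Pro against ISC and 0 in DBZ against Rbpj Sec-Pro, the counts without it. Over all genes, the median difference of Sec-Pro was -0.093 against Ent-Pro and -0.11 against ISC, and cyclic loess moved both to within 0.01 of 0. For Sec-Pro against Ent-Pro it turned 1149 higher and 1826 lower genes into 1425 and 1225, and centring gave 986 and 2643. For Sec-Pro against ISC loess turned 2230 and 3376 into 2661 and 2674. Counts of all genes ranged over the alternatives from 97 to 2742 for DBZ against Rbpj Sec-Pro, from 903 to 3714 for Sec-Pro against Ent-Pro and from 1704 to 3802 for Ent-Pro against ISC. With 2 arrays a group, leaving 1 out assumes that the lone array varies like the other groups.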

Other observations

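Besides the claudins named above, 11 further claudin genes were measured, and of these Cldn23, a claudin of the intestinal epithelium, was clearly above background. It read 8.37 and 8.33 (ISC), 9.50 and 9.08 (Rbpj Sec-Pro), 9.54 and 9.08 (DBZ Sec-Pro), 8.65 and 8.73 (Ent-Pro), and 10.78 and 10.23 (ENT). Both ENT arrays were highest, and Cldn23 was 3.52-fold higher in ENT than in Ent-Pro (1.82, SE 0.22, adjusted p = 0.000326) and 1.93-fold higher in Sec-Pro than in ISC (adjusted p = 0.00383). Against Ent-Pro the Sec-Pro difference was 0.61 (adjusted p = 0.0511). As for Cldn4, ISC and Ent-Pro were the lowest groups and ENT the highest.

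The other 10 were dim, between -0.44 and 2.53 (log2) from the absent control. Of these Cldn6 was higher in Sec-Pro than in Ent-Pro by 0.69 (adjusted p = 0.0202), at most 6.16 on any array, and Cldn9 by 0.34 (adjusted p = 0.0415). Cldn9 was also lower in Ent-Pro than in ISC (-0.36, adjusted p = 0.0495). Over the 5 comparisons no further call was made among these 10. Both were singled out after their values were seen.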
